A study of Mus musculus with 9 samples.

Results

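Wild type mouse embryo fibroblasts (MEFs) at passage 5 (P5) were compared with wild type MEFs at passage 3 (P3), 3 arrays against 3. A probe-set is a group of short probes meant to read 1 transcript or gene, though 932 were matched to several genes. Members were all probe-sets with a log2 signal above 4 on at least 3 of these 6 arrays, whichever group those arrays belonged to. This gave 18296 of the 45101 probe-sets on the array, and 17551 of them were above 4 on all 6 arrays. The study holds 9 arrays, the other 3 being Tgif1 -/- MEFs at P3, and Tgif1 is a transcriptional corepressor of the TGFβ response. The wild type cells carried no targeted allele, and all cells came from 13.5 day embryos of C57BL/6J x 129Sv/J mice. They were primary cells grown in DMEM with 10% fetal bovine serum and the labels describe 3T3 growth, replating at a fixed density every 3 days, without saying that these cultures were passed so. No treatment was given, so that passage number, and with it time in culture, was the only labelled difference. The labels do not say which embryos the cultures came from. The p-values measure the spread between cultures within all 3 groups, so the Tgif1 -/- cultures enter it as well.

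Primary MEFs divide for a limited number of passages in ordinary culture and then enter senescence. This is a lasting arrest in which cells stay alive, flatten and change what they secrete. The study's authors describe it as thought to come at least partly from culture stress, of which high oxygen is a major form. The arrest runs through the Ink4a/Arf gene Cdkn2a, whose transcripts encode p16Ink4a, an inhibitor of the cyclin D kinases, and p19Arf, an activator of p53. Both routes leave the retinoblastoma family proteins free to hold back E2F factors, which switch on genes for DNA synthesis, and to join the DREAM complex, which holds back genes for mitosis. Senescent fibroblasts are also known for secreting cytokines, matrix proteins and proteases, and for a larger lysosomal compartment.

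A log2 difference is given as P5 minus P3, with its standard error (SE), from a limma fit of the 3 groups on all 9 arrays, and a probe-set was called when limma's Benjamini-Hochberg adjusted p was under 0.05. The lowest value on every array was 2.23, so a group that averaged under 4 gives only a lower bound on a fold change. The wild type arrays each had 18135 to 18255 probe-sets above 4, and their medians ranged from 2.48 to 2.50. Over the members the 3 P5 arrays correlated with each other at 0.9959 to 0.9975. P3 replicate 2 lay a little apart from its group, with correlations of 0.9928 and 0.9897 to the other P3 arrays against 0.9969 between those. The median SD of a member was 0.129 at P3, 0.0863 at P5 and 0.142 in the Tgif1 -/- cultures, whose spread enters every call. The fibroblast genes Col1a2, Vim and Thy1 read 12.21 or more on all 6 arrays. Of 31 fibroblast and pericyte markers measured, 20 averaged above 4 at P3 and 22 at P5. Tgif1 itself read 9.82, 9.95 and 9.72 at P3 and 10.06, 10.07 and 10.18 at P5. Its groups did not overlap and it was not called (adjusted p = 0.627). The SE of Tgif1, 0.20, takes in the Tgif1 -/- arrays, at 2.48, 3.21 and 2.50, so it does not measure the wild type spread alone. Ccnd1, Mdm2 and Cxcl1, not called below, also had their largest SD in the Tgif1 -/- cultures (0.25, 0.28 and 0.74). Further genes not called below did so too, among them Eln (0.998), Ccng1 (0.16), Ccl2 (0.29), Mmp2 (0.27), Col3a1 (0.28) and Myog (0.45). For Cdkn1a the largest SD was at P3 (0.22).

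Of the members, 1833 were called higher at P5 (10.0%) and 1907 lower (10.4%), against 4.29% and 4.33% of all 45101 probe-sets. In 9229 members (50.4%) the 3 P5 values did not overlap the 3 P3 values, so non-overlap alone marked about as many members as not. Changes of at least 2-fold were more often increases, 446 against 217 members. Taking for each gene the probe-set with the highest mean signal gave 18194 genes, of which 1116 were called higher (6.13%) and 1293 lower (7.11%). Among the 9966 of these genes whose probe-set was a member, the shares were 10.7% and 12.8%, and these shares are the background for the gene lists below. A list called at shares near these is given as a description only. The median difference was 0 over all genes and -0.03 over the member genes. Leaving out P5 replicate 2 brought the members called down to 1912, and leaving out P5 replicate 1, P3 replicate 1 or P3 replicate 3 to 2077, 1962 and 2228.

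The largest increases were in Prelp and Rarres1. Prelp encodes a leucine-rich proteoglycan that anchors basement membranes to the underlying connective tissue, and it read 2.96, 3.07 and 3.02 at P3 and 7.63, 7.97 and 7.45 at P5. Its 3 P3 arrays were all near the lowest value and its 3 P5 arrays far above, a difference of 4.67 or at least 25.4-fold (adjusted p = 0.000168). Rarres1, a retinoic acid responsive gene for a membrane protein, read 2.23, 2.23 and 2.23 at P3, which is the floor of the array, and 6.62, 6.82 and 6.62 at P5 (difference 4.46, at least 21.9-fold, adjusted p = 2.97e-06). Itgbl1, a secreted protein with integrin-like repeats, went from 4.36, 4.22 and 3.96 to 7.58, 7.46 and 7.36, 9.77-fold (adjusted p = 0.00102). Abi3bp, a secreted matrix protein, rose from 2.56, 3.14 and 2.60 to 6.03, 5.98 and 6.05, which is at least 9.56-fold. Prelp, Rarres1 and Abi3bp were members only through the P5 arrays, where they were high. Values at the floor hardly vary, least of all for Rarres1, so the adjusted p of these genes is a description and no added support. A second probe-set for Prelp stayed under 4 on all 6 arrays and rose by 0.73 ± 0.083 (SE), so the size of the Prelp change depends on the probe-set read.

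Genes that were already well expressed at P3 also rose several-fold. Penk, the precursor of the enkephalin peptides, which fibroblasts also make, had log2 signals of 8.96, 8.66 and 8.85 at P3 and 11.63, 11.68 and 11.75 at P5. The difference was 2.87 or 7.29-fold (adjusted p = 0.000107). Ccn5, a matricellular protein that lacks the C-terminal domain of its relatives Ccn1 and Ccn2, went from 7.17, 7.30 and 6.84 to 9.70, 10.04 and 9.89, 6.83-fold. Fmod, a collagen-binding proteoglycan, went from 7.32, 7.33 and 7.74 to 9.93, 10.03 and 10.02, 5.77-fold, and Coch, a secreted protein best known from the inner ear, from 7.03, 7.16 and 7.01 to 9.47, 9.48 and 9.50, 5.34-fold. Il1rn, the secreted antagonist of the interleukin-1 receptor, varied more within groups, at 4.72, 5.23 and 4.33 and 7.25, 7.68 and 6.90 (5.73-fold, adjusted p = 0.00729). Cd80, a T cell costimulatory ligand, rose 5.64-fold from 4.34, 4.16 and 4.14 to 6.56, 6.67 and 6.89. The other genes among the 15 largest increases were Nrn1, Cobl, Nr4a3, Gda and the unnamed reading frame 3110039M20Rik, with differences of 2.41 to 3.11.

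**Figure D1:**
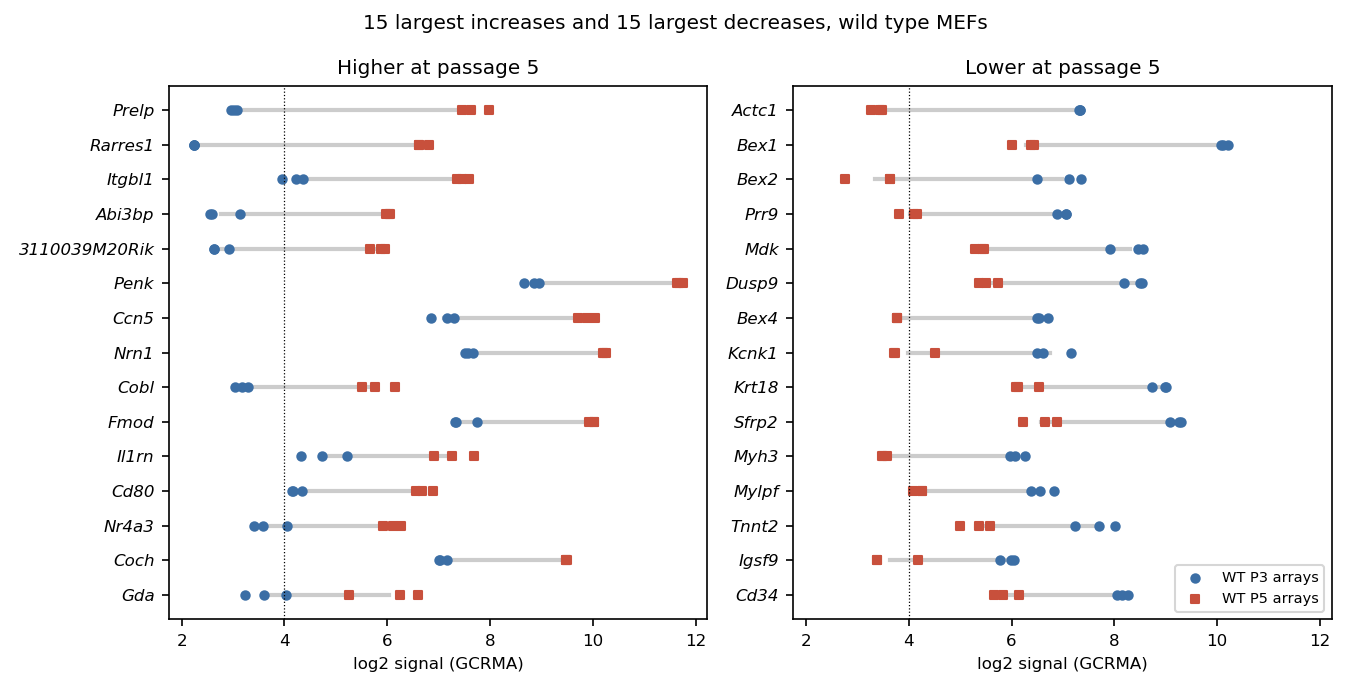
The 15 genes with the largest called increases (left) and the 15 with the largest called decreases (right), with the log2 signal of each wild type P3 array (circles) and P5 array (squares); grey bars join the group means and the dotted line marks a log2 signal of 4. The genes were chosen for groups that do not overlap. Prelp and Rarres1 lie at 3.07 or lower on all P3 arrays and at 6.62 or higher on all P5 arrays.

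The largest decreases were in Actc1, Bex1 and Bex2. Actc1, the cardiac α-actin, which embryonic muscle also makes, read 7.33, 7.33 and 7.31 at P3 and 3.26, 3.48 and 3.44 at P5, a difference of -3.93 or at least 15.2-fold lower (adjusted p = 0.000569). Bex1, an adaptor protein of developing neurons that lies on the X chromosome, read 10.11, 10.07 and 10.22 at P3 and 6.44, 6.39 and 6.00 at P5. It was 14.5-fold lower at P5, with every P5 array at least 3 units under every P3 array. Its neighbours in the same family moved with it. Bex2 went from 7.11, 6.49 and 7.35 to 3.64, 3.64 and 2.77, at least 12.4-fold lower, and Bex4 from 6.49, 6.54 and 6.72 to 3.78, 3.78 and 3.78, at least 6.97-fold lower. Actc1, Bex2 and Bex4 were members only through the P3 arrays, where they were high, so their calls are a description as well. Mdk encodes midkine, a heparin-binding growth factor of mid-gestation embryos, and its signals of 8.47, 7.91 and 8.55 at P3 and 5.46, 5.30 and 5.42 at P5 differed by -2.92 (SE 0.30, adjusted p = 0.00307), 7.56-fold lower. Dusp9, an X-linked phosphatase that turns off ERK, fell 7.31-fold from 8.51, 8.19 and 8.53 to 5.37, 5.51 and 5.74. Sfrp2, a secreted modulator of Wnt signals, fell 6.21-fold, from 9.25, 9.09 and 9.30 to 6.64, 6.88 and 6.22. Cd34, a sialomucin of progenitor cells and of many fibroblasts, fell 4.85-fold, from 8.27, 8.05 and 8.16 to 5.84, 6.14 and 5.67, and the epithelial keratin gene Krt18 fell 6.31-fold, from 8.98, 9.01 and 8.73 to 6.13, 6.08 and 6.53. The remaining genes of the 15 were Prr9, Kcnk1, Igsf9 and the muscle genes Myh3, Mylpf and Tnnt2, with differences of -2.97 to -2.30.

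The brakes of the cell cycle moved in different directions. Cdkn2a read 9.77, 9.56 and 9.85 on the P3 arrays and 11.66, 11.71 and 11.61 on the P5 arrays. The groups lay far apart, with a difference of 1.94 (SE 0.095) or 3.83-fold (adjusted p = 0.000349), and since the array has 1 probe-set named for the gene here, the p16Ink4a and p19Arf transcripts were not told apart. Its neighbour Cdkn2b, which encodes p15Ink4b, rose by 0.51, from 11.18, 11.16 and 11.09 to 11.65, 11.69 and 11.61. Cdkn2c (p18Ink4c) rose by 0.44, whereas Cdkn2d (p19Ink4d) fell by 0.61, from 8.75, 8.66 and 8.92 to 8.21, 8.12 and 8.18. Of the Cip/Kip family, Cdkn1c (p57Kip2), an imprinted gene expressed from the maternal copy, fell 4.84-fold, from 9.08, 9.38 and 9.10 to 6.92, 7.10 and 6.71 (adjusted p = 0.000972). Cdkn1a (p21Cip1), a p53 target, read 12.73, 12.40 and 12.83 and 12.88, 12.91 and 12.91, and although the groups did not overlap its difference of 0.25 was not called (adjusted p = 0.374). Cdkn1b (p27Kip1) overlapped between the groups (9.33, 9.50 and 9.34 against 9.34, 9.32 and 9.18). The pocket protein genes Rb1, Rbl1 and Rbl2 were not called. In the list of 10 Cdk inhibitors and pocket proteins, 3 were thus higher and 2 lower, or 1 lower without P3 replicate 1 or any P5 array, when Cdkn2d was not called.

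**Figure D2:**
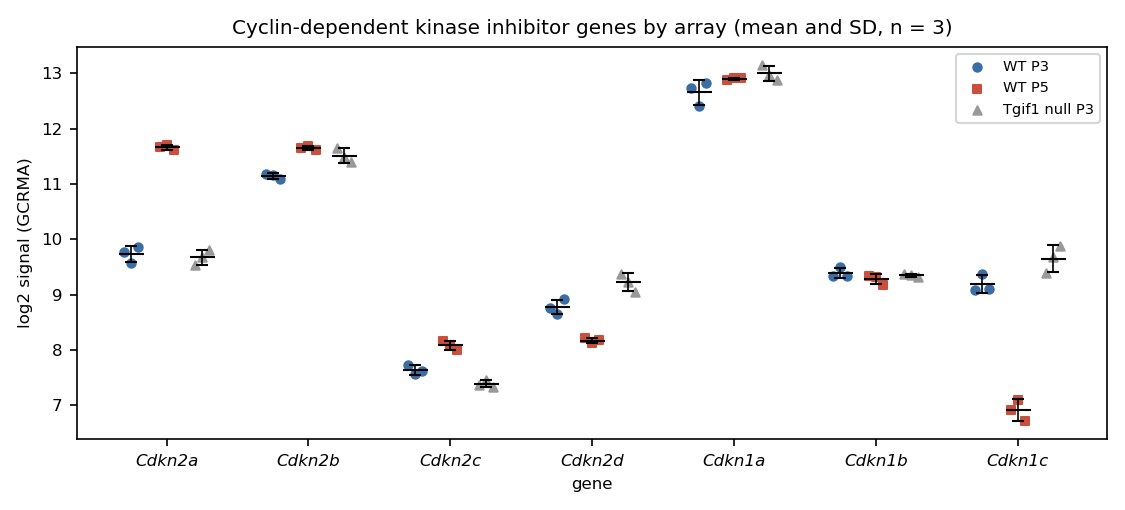
Log2 signal of 7 Cdk inhibitor genes on each array (points), with the mean and SD of the 3 arrays of wild type P3 (circles), wild type P5 (squares) and Tgif1 null P3 (triangles). Cdkn2a at P5 lies between 11.61 and 11.71, above all P3 arrays, and Cdkn1c at P5 lies between 6.71 and 7.10, below all P3 arrays.

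DNA replication genes were lower at P5 in most cases. Of 52 measured, 40 were called lower and 0 higher, with a median difference of -0.81, where 7.11% of all genes and 12.8% of member genes were called lower. The summed log2 signal of the list was 487.8 to 490.4 on the P3 arrays and 448.5 to 452.8 on the P5 arrays. Fewer cycling cells and less RNA per cell cannot be told apart in such bulk samples. The Mcm2-7 helicase, which unwinds DNA at forks, was lower in each of its 6 subunits, from -0.67 for Mcm4 to -1.16 for Mcm5. Mcm5 read 11.76, 11.65 and 11.84 at P3 and 10.56, 10.59 and 10.63 at P5 (adjusted p = 0.000219), with no overlap. Among the factors that load and fire the helicase, Orc6 fell from 10.20, 10.14 and 10.17 to 9.39, 9.42 and 9.45, Cdc6 by 1.14 and Cdc7, the kinase that fires origins, by 1.19, while Orc3 and Orc4 had differences of 0.053 and 0.62 and were not called. The catalytic subunits of the 3 replicative polymerases were lower, Pola1 by 0.67, Pold1 by 1.30 and Pole by 0.91. Pcna, the sliding clamp, changed less, from 13.43, 13.39 and 13.35 to 12.96, 12.89 and 12.94 (-0.46, adjusted p = 0.00373). Chaf1b, a subunit of the chromatin assembly factor at forks, fell 2.10-fold, from 6.61, 6.67 and 6.55 to 5.59, 5.58 and 5.44, and Uhrf1, which brings DNA methylation to newly made strands, 2.18-fold. Ribonucleotide reductase, which makes deoxynucleotides, fell less, with -0.54 for Rrm1 and -0.45 for Rrm2.

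Of 70 mitotic genes measured, 52 were called lower and 0 higher, with a median of -0.69, and the difference was below 0 in 69 of them. The median signal of the list was at least 8.97 on the P3 arrays and 8.15 to 8.34 on the P5 arrays. Bub1b, a kinase-like protein of the spindle checkpoint, read 8.17, 8.25 and 8.17 at P3 and 6.94, 6.86 and 6.92 at P5, 2.44-fold lower (adjusted p = 0.00111), and the groups were more than a unit apart. Cenpf, a kinetochore protein, went from 8.96, 8.91 and 9.04 to 7.96, 7.86 and 8.05, 2.02-fold lower. The mitotic kinases were lower as well, Plk1 by 1.05, Aurka by 0.65 and Aurkb by 0.74. Cdc20, which directs the anaphase promoting complex, fell from 12.25, 12.19 and 12.34 to 11.65, 11.62 and 11.64, Hmmr, a spindle assembly protein, from 9.52, 9.48 and 9.62 to 8.80, 8.71 and 8.74, and the condensin subunit Ncapd2 from 8.81, 8.89 and 8.86 to 7.75, 7.75 and 7.78. The steepest in the list was the kinesin Kif18b, at -1.44. Pttg1, the securin, had a difference of -0.42 and was not called.

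Most regulators that drive these programs were lower too. Of 29 cyclins, Cdks, Cdc25 phosphatases and their transcription factors, 16 were lower and 1 higher, with a median of -0.40. Ccna2, the cyclin of S phase and G2, fell 1.93-fold, from 10.81, 10.82 and 10.72 to 9.69, 9.86 and 9.97 (adjusted p = 0.00134). Cdk1 fell by 0.72 and Ccne1 by 0.35. The MuvB partners Mybl2 and Foxm1 fell by 1.31 and 1.10, and the repressor E2Fs E2f7 and E2f8 by 1.13 and 1.04, whereas E2f1 had a difference of -0.19 and was not called. Of the D-type cyclins, Ccnd2 was the only gene of the list called higher (0.56), and Ccnd1, at 12.29, 12.22 and 12.29 and 12.77, 12.69 and 12.68, did not overlap but was not called (adjusted p = 0.0805). DNA repair genes were lower in 17 of 57 and higher in 0, with a median of -0.26. The lower ones included the homologous recombination genes Brca1 (-0.72), Brca2 (-0.86), Rad54l (-1.33) and Blm (-1.20), while Xrcc5, which joins broken ends, overlapped (-0.08). Leaving out P3 replicate 1 lowered the repair count to 10. In chromatin and DNA methylation genes 10 of 28 were lower and 0 higher, among them Dnmt1 (-0.98), the histone chaperone Asf1b (-0.92), the variant histone H2az1 (-1.07) and Ezh2 (-0.76).

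The mitotic and replication genes are known to be switched on through CHR and E2F motifs, and their promoters were searched for these letters. Promoters of 300 bases around each start (250 before and 50 after, RefSeq, GRCm38.p6) were searched on both strands for a CCAAT box (CCAAT), a cell cycle homology region or CHR (TTTGAA or TTCGAA), E2F sites (TTGGCGC or TTCCCGC) and AP-1 sites (TGACTCA or TGAGTCA) (the letters TTGGCGC after an A also hold a CCAAT box on the other strand). The table held promoters for 60 of the 70 mitotic genes and 45 of the 54 replication genes listed. A CHR was present in 65.2% of 66 mitotic promoters against 19.2% of all 32851, and a CCAAT box in 72.7% against 37.4%, and both together in 54.5% against 7.52%. E2F letters were in 50.9% of 55 replication promoters against 6.81% of all, and in 21.2% of mitotic ones. Over all genes called lower 239 of 1325 promoters held a CHR and 244 (18.4%) E2F letters, and over all genes called higher the shares were 11.7% and 9.65%, while member genes as a whole held them at 13.7% and 12.4%. AP-1 letters were in 5.56% of the promoters of genes called higher, 3.09% of those called lower, 3.62% of member genes and 5.20% of all, and in 0 of 21 promoters of immediate early genes. These are matches of letters and not binding sites. The 6 promoters below are shown because, among called genes of the list with 1 promoter in the table and the motifs in it, these genes had the smallest p. In the 3 mitotic promoters the capitals mark CCAAT boxes and the CHR on either strand. In the 3 replication promoters they mark E2F letters.

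Cenpf, chr1:189688037-189688336, - strand: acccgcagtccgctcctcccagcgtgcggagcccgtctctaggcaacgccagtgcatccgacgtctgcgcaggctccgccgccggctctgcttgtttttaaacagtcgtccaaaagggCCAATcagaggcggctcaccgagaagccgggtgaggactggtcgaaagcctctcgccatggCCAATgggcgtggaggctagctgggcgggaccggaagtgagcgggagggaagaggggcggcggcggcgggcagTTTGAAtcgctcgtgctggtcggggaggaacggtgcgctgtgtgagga
Hmmr, chr11:40733388-40733687, - strand: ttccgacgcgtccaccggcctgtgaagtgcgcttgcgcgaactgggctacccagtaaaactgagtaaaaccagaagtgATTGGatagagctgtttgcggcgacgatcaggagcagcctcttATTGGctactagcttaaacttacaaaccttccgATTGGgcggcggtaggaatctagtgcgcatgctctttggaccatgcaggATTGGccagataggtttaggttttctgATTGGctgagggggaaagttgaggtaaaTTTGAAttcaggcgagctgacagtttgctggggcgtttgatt
Cdc20, chr4:118437294-118437593, - strand: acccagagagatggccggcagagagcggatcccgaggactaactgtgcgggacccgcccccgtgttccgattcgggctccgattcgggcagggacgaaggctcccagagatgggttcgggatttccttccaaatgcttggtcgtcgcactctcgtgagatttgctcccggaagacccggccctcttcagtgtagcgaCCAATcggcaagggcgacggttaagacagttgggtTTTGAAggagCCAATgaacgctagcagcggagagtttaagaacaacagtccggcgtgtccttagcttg
Mcm5, chr8:75109259-75109558, + strand: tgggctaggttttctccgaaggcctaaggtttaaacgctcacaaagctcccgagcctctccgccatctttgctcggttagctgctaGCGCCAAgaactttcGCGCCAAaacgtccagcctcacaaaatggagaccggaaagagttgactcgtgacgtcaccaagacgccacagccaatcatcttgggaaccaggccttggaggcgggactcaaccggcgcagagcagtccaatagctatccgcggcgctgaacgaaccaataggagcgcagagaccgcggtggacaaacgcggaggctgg
Chaf1b, chr16:93883651-93883950, + strand: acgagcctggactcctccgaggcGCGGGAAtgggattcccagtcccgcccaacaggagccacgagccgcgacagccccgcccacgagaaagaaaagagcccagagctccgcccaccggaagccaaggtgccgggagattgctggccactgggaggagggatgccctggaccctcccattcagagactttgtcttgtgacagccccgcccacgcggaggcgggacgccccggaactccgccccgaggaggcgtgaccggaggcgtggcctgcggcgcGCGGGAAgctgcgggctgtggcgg
Rrm1, chr7:102441445-102441744, + strand: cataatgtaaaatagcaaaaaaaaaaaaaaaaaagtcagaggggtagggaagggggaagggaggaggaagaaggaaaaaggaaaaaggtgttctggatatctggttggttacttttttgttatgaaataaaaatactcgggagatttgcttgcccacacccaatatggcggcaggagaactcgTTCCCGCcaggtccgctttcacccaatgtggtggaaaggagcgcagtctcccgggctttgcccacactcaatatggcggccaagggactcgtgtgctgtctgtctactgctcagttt

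In Cdc20 the CHR begins 18 bases before the start, between CCAAT boxes at 53 and 8 bases before it, and the log2 difference of the gene was -0.63 (SE 0.035). Hmmr held 5 CCAAT boxes, all read on the other strand, and Mcm5 a pair of E2F matches 164 and 149 bases before its start.

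**Figure D3:**
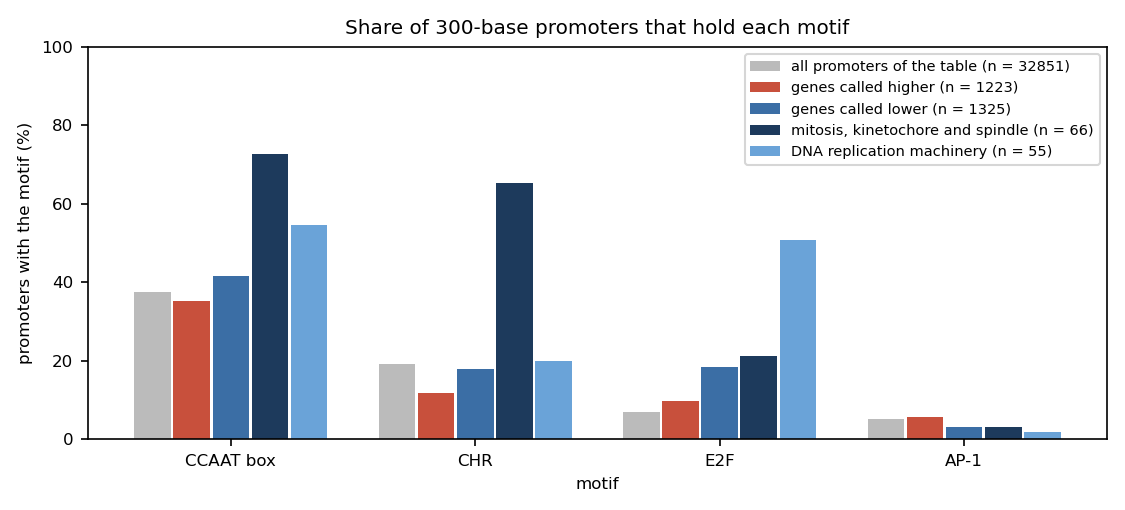
Share of 300-base promoters that hold each motif on either strand, for all promoters of the table, for genes called higher or lower at P5 and for the mitosis and replication lists; n is the number of promoters. The CHR bar of the mitosis list reaches 65.2% and the E2F bar of the replication list 50.9%, against 19.2% and 6.81% of all promoters.

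Immediate early genes, which respond within minutes to growth factors and stress and encode the AP-1 subunits and their feedback regulators, were measured in 22 cases. Of these, 12 were called higher and 0 lower, with a median of 0.85, where 6.13% of all genes and 10.7% of member genes were called higher. Fos read 13.49, 13.56 and 13.44 at P3 and 14.46, 14.63 and 14.47 at P5, 2.03-fold (adjusted p = 0.000389), and Fosb 7.45, 6.92 and 7.61 and 9.21, 9.41 and 9.42, 4.07-fold. The groups were fully apart in both, with P3 replicate 2 the lowest for Fosb. Zfp36, which encodes the RNA decay factor tristetraprolin, rose 3.05-fold, from 9.82, 9.35 and 9.77 to 11.16, 11.41 and 11.21, and Dusp1, a MAP kinase phosphatase, 2.35-fold. Atf3 rose by 1.52, Egr1 by 0.88 and Junb by 0.84. Jun and Myc were not called. Jun overlapped, at 11.83, 11.87 and 11.75 and 11.63, 11.81 and 11.87, and Myc had a difference of -0.27 (adjusted p = 0.223). Egr2, Egr3 and Nr4a1, which the plot adds, were chosen after their values were seen and were higher by 0.85, 2.15 and 1.34. The count was 5 when P3 replicate 1 or any P5 array was left out, 6 without P3 replicate 3 and 8 without P3 replicate 2.

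**Figure D4:**
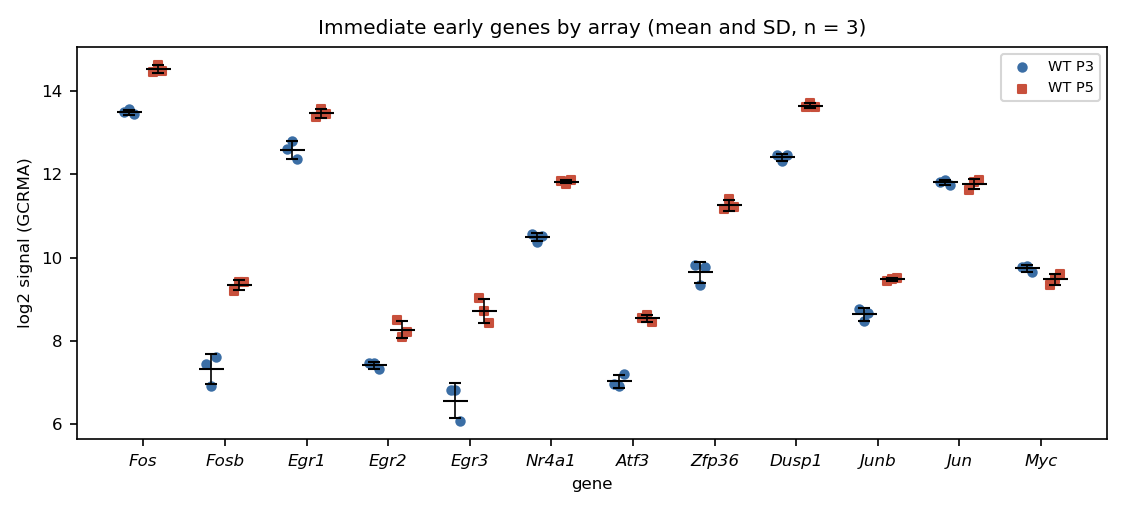
Log2 signal of 12 immediate early genes on each wild type array (points), with the mean and SD of the 3 arrays of P3 (circles) and P5 (squares). Fosb lies between 6.92 and 7.61 at P3 and between 9.21 and 9.42 at P5, while the groups overlap for Jun.

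Targets of p53 were more often called higher than lower, though most were not called. Of 28 measured, 9 were called higher and 1 lower, with a median of 0.26 and differences above 0 in 23. Perp, a p53 effector at the plasma membrane, went from 7.31, 7.51 and 7.37 to 8.98, 8.88 and 8.29, 2.50-fold (adjusted p = 0.0152), Trp53inp1 rose by 0.92, Ddit4, an inhibitor of mTORC1, by 0.94 and the death receptor gene Eda2r by 0.42. Mdm2, the p53 ubiquitin ligase, read 9.73, 9.85 and 9.61 and 10.25, 10.29 and 10.15, and Ccng1 13.76, 13.91 and 13.79 and 14.21, 14.15 and 14.09. Both were above their P3 values on every P5 array and neither was called (adjusted p = 0.106 and 0.0754). The called count was 2 without P3 replicate 1 and 3 without P3 replicate 3, P5 replicate 1 or P5 replicate 2.

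The list of senescence-associated genes was called in both directions, with 4 of 16 higher and 6 lower. It holds genes known to fall in senescence, such as Lmnb1, beside genes known to rise, so the sign alone does not score it. Lmnb1, the nuclear lamin that senescent cells are known to lose, fell from 10.07, 10.31 and 10.01 to 8.99, 8.98 and 8.99, 2.21-fold (adjusted p = 0.00217), and the chromatin protein gene Hmgb2 fell 1.99-fold. Glb1, whose product is the lysosomal β-galactosidase used as a senescence stain, rose by 0.50, from 8.53, 8.51 and 8.53 to 9.13, 9.06 and 8.87 (adjusted p = 0.00809). Il6 rose 4.23-fold, from 7.73, 7.61 and 7.72 to 9.85, 9.83 and 9.62, with no overlap. Insulin-like growth factor binding proteins went both ways, with Igfbp3 2.86-fold higher (7.53, 7.66 and 7.39 to 9.16, 9.22 and 8.76), Igfbp2 2.26-fold higher and Igfbp5 2.35-fold lower (11.55, 11.52 and 11.40 to 10.16, 10.48 and 10.13). Among 33 chemokine and cytokine genes 7 were higher and 0 lower, with a median of 0.18. Besides Il6 and Il1rn these included Cxcl12, the ligand of Cxcr4, which went from 11.83, 11.84 and 11.84 to 12.95, 13.12 and 13.11 (2.33-fold, adjusted p = 0.00015), Csf1 (0.56) and Cxcl5 (1.28). Ccl2, a chemokine often secreted by senescent fibroblasts, read 10.99, 10.57 and 10.92 and 10.28, 10.14 and 10.17, lower on every P5 array and not called (adjusted p = 0.0803), and Cxcl1, with 1.04, was not called either. Interferon genes were called higher in 4 of 31 (12.9%), against 6.13% of all genes and 10.7% of member genes. The 4 were H2-K1 (0.78), H2-D1 (0.77), Gbp2 and Ddx58, while Irf7 and Ifit1 stayed at the lowest value on all 6 arrays. Complement and acute phase genes were higher in 7 of 15 and lower in 1. Cd59a, which protects cells from complement lysis, rose 4.32-fold (7.06, 6.40 and 7.23 to 9.01, 8.89 and 9.11), and the protease gene C1ra at least 3.03-fold, whereas Clu fell by 1.21. The called gene C1s1 was under 4 on all 6 arrays, so no fold is given. The lower senescence count was 3 without P3 replicate 1 or 3, and the interferon count 2 without P3 replicate 1 or P5 replicate 2.

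Small leucine-rich proteoglycans, which bind collagen fibrils, were higher in 7 of 13 and lower in 0, and 5 of the other 6 averaged under 4 in both groups. After Prelp and Fmod came Lum, Omd and Ogn. Lum read 3.89, 4.43 and 3.03 at P3 and 5.26, 5.75 and 5.31 at P5 (at least 3.15-fold, adjusted p = 0.0369), and Ogn 11.12, 11.22 and 10.83 and 12.31, 12.38 and 12.23 (2.38-fold). Dcn, the best known of them, overlapped between the groups, at 7.61, 7.73 and 7.48 and 7.44, 7.69 and 7.44. The proteoglycan count was 4 without P5 replicate 2. In collagens and their modifying enzymes 13 of 39 were higher and 1 lower, with a median of 0.31. Col8a1 rose from 11.97, 12.09 and 11.96 to 12.87, 12.87 and 12.85 (1.81-fold, adjusted p = 0.000585), the FACIT collagen Col12a1 by 0.58 and the crosslinking enzyme gene Loxl3 by 0.93, and Col10a1 rose 3.22-fold. The main fibrillar chains moved little, with Col1a2 at 0.26 (adjusted p = 0.046), Col1a1 at 0.28 and overlapping, and Col3a1 at 0.33 and not called. Col2a1, the cartilage collagen, fell 2.18-fold, from 10.65, 10.33 and 10.73 to 9.22, 9.33 and 9.80. The collagen count was 5 or 6 when P3 replicate 1, P3 replicate 3 or any P5 array was left out, and Col2a1 was not called without P3 replicate 1 or 3, P5 replicate 1 or 2 or null replicate 2.

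Elastic fibre and latent TGFβ binding genes were higher in 6 of 13 and lower in 0, with a median of 0.56. Ltbp2, a fibrillin-like microfibril protein, rose from 8.93, 9.08 and 9.06 to 10.70, 10.65 and 10.80 (3.24-fold, adjusted p = 9.68e-05). Mfap5 rose 2.56-fold and Fbln5 by 0.62, and Eln, elastin itself, read 7.20, 6.66 and 7.23 and 7.33, 7.57 and 7.87 and was not called. Of 30 matrix proteases and inhibitors 10 were higher and 0 lower. Timp3, a matrix-bound inhibitor of metalloproteinases, went from 10.79, 10.78 and 10.76 to 12.23, 12.42 and 12.19 (2.84-fold, adjusted p = 0.00302), Mmp23 from 7.91, 7.67 and 7.88 to 8.97, 8.91 and 9.05 and Adamts12 from 7.35, 7.26 and 7.29 to 8.28, 8.27 and 8.70. Some metalloproteinase genes were not called, with Mmp3 at -0.52, Mmp9 under 4 on the 6 wild type arrays and Mmp2 at 0.49. Matricellular and adhesive glycoproteins were higher in 6 of 23, with Fn1, fibronectin, at 0.36, Thbs1 at 0.97 and Comp, a cartilage and tendon protein, at least 3.49-fold higher. Tnc overlapped between the groups. Among integrins 4 of 17 were higher, Itgbl1, Itga8 (8.36, 8.32 and 8.32 to 9.91, 9.97 and 9.90, 3.01-fold), Itga1 and Itgb5, and Itga4 was lower (-0.87). Basement membrane genes were higher in 6 of 20, led by Smoc1 (3.50-fold, 6.01, 5.96 and 6.02 to 7.75, 7.66 and 8.01), and lower in 1, Ntn1 (2.83-fold). The laminin chains Lamb1 and Lamc1 overlapped.

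Actin and smooth muscle contractile genes, which mark the myofibroblast state, were higher in 8 of 29 and lower in 0, with a median of 0.13. Most of the increases were small, and the median signal of the list was between 13.06 and 13.73 on every array. Acta2, smooth muscle α-actin, read 14.82, 14.89 and 14.82 at P3 and 15.02, 15.04 and 15.04 at P5 (0.19, adjusted p = 0.00222). Cnn1 rose 1.92-fold, from 11.58, 11.38 and 11.42 to 12.22, 12.26 and 12.71, and Mylk, the myosin light chain kinase, 2.84-fold, from 8.61, 8.25 and 8.86 to 9.96, 10.09 and 10.20. Induced targets of TGFβ, several of which belong to the groups above, were higher in 11 of 26 and lower in 0, with a median of 0.29. They included Bhlhe40 (10.24, 10.20 and 10.08 to 11.36, 11.34 and 11.24, 2.21-fold) and Ccn2 (0.31), while the feedback genes Skil and Smad7 were not called (0.091 and 0.29). The count was 7 without P3 replicate 1, P5 replicate 2 or P5 replicate 3. In the TGFβ and BMP pathway itself, 8 of 47 were higher and 4 lower. Tgfb2, a ligand, rose by 0.72 and the activin subunit gene Inhbb by 0.96, the receptor gene Acvr1b fell by 0.61 and Tgif2, the relative of Tgif1, fell from 8.61, 8.44 and 8.60 to 7.44, 7.71 and 7.79 (-0.90, adjusted p = 0.0127). Tgfb1, Tgfbr1 and Smad3 were not called. The pathway's higher count was 2 to 5 without P3 replicate 1, P3 replicate 3 or any P5 array, and its lower count 2 without P3 replicate 1 or 3.

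**Figure D5:**
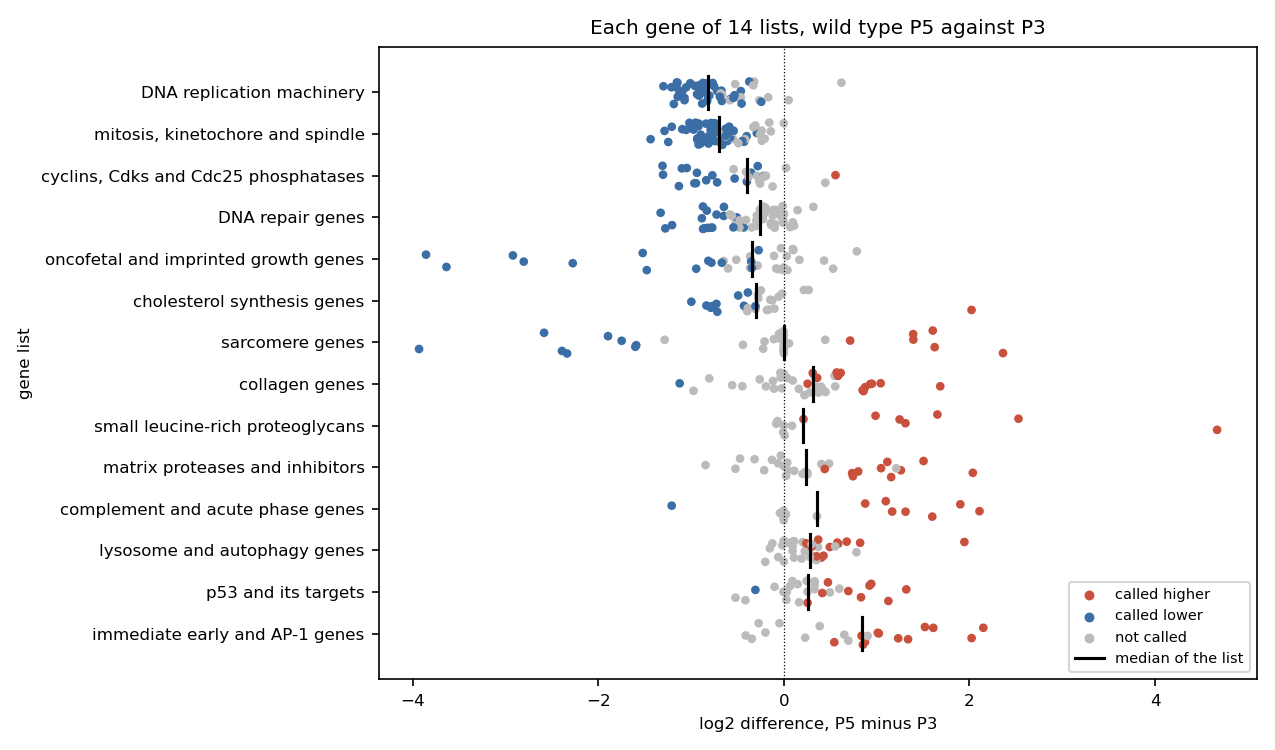
Log2 difference, P5 minus P3, of every measured gene in 14 lists; colours give the call and black bars the median of each list. The medians of replication and mitosis genes lie at -0.81 and -0.69 with no gene called higher, and that of the immediate early genes at 0.85 with no gene called lower.

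Of 34 oncofetal and imprinted growth genes 14 were called lower and 0 higher, with a median of -0.35. Next to Mdk, the Bex genes and Cdkn1c, Peg3, a paternally expressed zinc finger gene, fell from 11.58, 11.73 and 11.57 to 10.13, 10.17 and 10.16 (2.78-fold, adjusted p = 0.00138). Crabp1, a retinoic acid binding protein of embryonic mesenchyme, fell from 13.76, 13.67 and 13.78 to 12.85, 12.94 and 12.98, and Slc38a4, an imprinted amino acid transporter gene, from 10.72, 10.72 and 10.71 to 9.96, 10.13 and 10.06. The RNA binding proteins Igf2bp1 and Igf2bp3 fell by 0.78 and 0.27. Igf2, the imprinted growth factor, read 14.59, 14.38 and 14.62 and 14.09, 14.21 and 14.21, lower on every P5 array and not called (adjusted p = 0.0754), and Dlk1 overlapped. Of the genes that record position in the body, 6 of 63 were higher (9.52%) and 7 lower (11.1%). These shares lay between those of all genes (6.13% and 7.11%) and of member genes (10.7% and 12.8%). Hoxc8 rose 2.05-fold, from 8.44, 8.68 and 8.71 to 9.75, 9.66 and 9.54, and Hoxa5 by 0.52, while Zic1 fell 2.23-fold, from 9.05, 9.18 and 9.06 to 7.79, 8.01 and 8.01, and Hoxa9 by 0.57. Wnt genes were higher in 6 of 46 and lower in 2. Rspo2, a secreted amplifier of Wnt signals, rose 4.20-fold, from 8.90, 9.02 and 8.82 to 11.04, 10.97 and 10.93 (adjusted p = 0.000963), and Apcdd1, a Wnt inhibitor and target, fell 2.60-fold, from 9.64, 9.55 and 9.72 to 8.19, 8.25 and 8.34. Axin2, the standard Wnt target, averaged under 4 in both groups. Of 47 growth factor and receptor genes 9 were higher and 0 lower, among them Fgf10 (4.05, 4.58 and 4.58 to 6.68, 6.55 and 6.22, 4.23-fold), Bdnf (0.97) and Pdgfa (0.51). In the retinoid list Rarres1, Dhrs3 (2.61-fold) and Aldh1a1 were higher and Crabp1 and Rbp4 lower, though Aldh1a1 was under 4 on all 6 arrays. The Wnt count fell to 2 without P3 replicate 1 or P5 replicate 2, the growth factor count to 5 without any wild type array but P3 replicate 2, the higher positional count to 3 without P5 replicate 1, and the lower positional count to 3 or 4 without P3 replicate 1 or 3 or P5 replicate 1 or 2.

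Muscle genes split within 1 list. Of 40 sarcomere genes 8 were lower and 6 higher, and of the 26 not called 22 averaged under 4 in both groups. The summed log2 signal of the list was 156.1 to 159.0 at P3 and 143.9 to 149.8 at P5. The lower ones were Actc1, Myh3 (5.98, 6.26 and 6.07 to 3.50, 3.58 and 3.48), Tnnt2 (7.70, 7.24 and 8.01 to 5.37, 4.99 and 5.58), Mylpf, Myl1, Myl4, Tnni1 and Tnnc1. The higher ones included Acta1, skeletal α-actin, which rose 3.04-fold from 10.56, 10.67 and 10.48 to 12.03, 12.18 and 12.32 (adjusted p = 0.000389), and Myom1, at least 5.14-fold. The myogenic regulators Myod1, Myf5 and Myf6 were at the floor on all 6 arrays, and Myog read 3.54, 3.54 and 3.54 and 2.71, 2.71 and 2.71, under 4 throughout and not called. In the Tgif1 null cultures, which share the P3 arrays as their control, Actc1 read 10.19, 9.41 and 9.26, Myh3 8.87, 8.15 and 8.34 and Tnnt2 9.29, 8.76 and 8.91.

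Markers of cells that can accompany fibroblasts in embryo cultures were mostly near the floor. Of 30 macrophage markers 1 was called lower, Pf4 (5.70, 5.51 and 5.87 to 4.24, 4.51 and 4.07), and 0 higher, 10 averaged above 4 at P3 and 9 at P5, and the summed log2 signal was 106.9 to 110.3 at P3 and 102.4 to 104.2 at P5. The defining leukocyte gene Ptprc was at or near the lowest value on all 6 arrays, while Lyz2 read 8.56, 8.49 and 8.51 and 8.01, 8.11 and 7.78 (adjusted p = 0.0707). Of 21 endothelial markers Cd34 alone was called, Pecam1, Cdh5 and Tek were at the floor, and the sum was 80.38 to 81.69 at P3 and 76.37 to 77.24 at P5. Of 29 epithelial and mesothelial genes Krt18 and Krt7 were lower (-2.66 and -0.96), Epcam was near the floor, Msln was not called (0.20), and the sum was 119.2 to 119.7 at P3 and 110.3 to 111.8 at P5. Among 30 neural and glial genes 4 were lower (13.3%) and 1 higher (3.33%), Map2, with Gfap at the floor. The lower ones were Bex1, Bex2, Gap43 (9.51, 9.44 and 9.65 to 8.09, 7.92 and 7.74) and Nefm, which was under 4 on all 6 arrays. Globin genes were at the floor, and of 14 erythroid genes Tfrc alone was called (-0.45), a transferrin receptor that dividing cells of any kind use. Fibroblast and pericyte markers were called higher in 4 of 31 (12.9%) and lower in 2 (6.45%). The shares were 6.13% and 7.11% of all genes and 10.7% and 12.8% of member genes, and 22 of the 31 were members. Pdgfra, Thy1 and Vim were not called and the pericyte gene Rgs5 was lower by 1.07. Neither Tfrc nor Map2 was called when any wild type array was left out. The part of other cells in the sarcomere, keratin and macrophage values was not tested.

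Lysosome and autophagy genes were higher in 12 of 35 and lower in 0, with a median of 0.28. Ctsf, a cathepsin, rose at least 3.85-fold, from 3.69, 3.91 and 3.98 to 5.74, 5.98 and 5.71, and Hexa, a β-hexosaminidase subunit, rose by 0.58, from 11.23, 11.25 and 11.20 to 11.77, 11.90 and 11.75 (adjusted p = 0.00596). Ctsd rose by 0.59, Ctsz by 0.43 and Psap by 0.37, and Lamp1 and Sqstm1 overlapped between the groups. The count was 7 without P5 replicate 2. Genes for cholesterol and fatty acid synthesis were lower in 10 of 27, with a median of -0.30. The lower genes included Dhcr7 of cholesterol synthesis, at 8.21, 7.97 and 8.16 and 7.15, 7.10 and 7.11, and genes of fatty acid synthesis, with Fasn, fatty acid synthase, at 11.43, 11.38 and 11.51 and 10.68, 10.73 and 10.74 (1.65-fold lower, adjusted p = 0.000741), Acaca at -0.77 and Elovl6 at -0.83, and the regulator Srebf1 fell by 0.49, while Hmgcs1 and Sqle overlapped. The 1 gene called higher was Abca1, which exports cholesterol (4.06-fold), named after its value was seen and not called without P5 replicate 2 (adjusted p = 0.0521). The lower count was 5 without P5 replicate 1 and 6 without P3 replicate 1 or P5 replicate 3. Oxidative phosphorylation genes were called lower in 5 of 58 (8.62%) and ribosomal protein genes in 4 of 32 (12.5%), against 12.8% of member genes. Their medians were -0.10 and -0.06, and 0 of either were called lower under a spread prior that follows the signal. Glycolysis and hypoxia genes went both ways, 8 of 33 higher, led by Epas1 (6.43, 6.48 and 6.30 to 7.38, 7.41 and 7.37), and 2 lower, Ndrg1 and Egln3. Among 37 antioxidant genes 4 were higher (10.8%) and 2 lower (5.41%). The shares were 6.13% and 7.11% of all genes and 10.7% and 12.8% of member genes. The higher ones included Hmox1, heme oxygenase 1, from 9.55, 9.70 and 9.74 to 10.91, 10.83 and 10.90 (2.32-fold, adjusted p = 0.000389). Endoplasmic reticulum stress genes were higher in 5 of 27, none by more than Dnajb9 (0.75), and Hspa5 and Ddit3 overlapped. Adipocyte genes were higher in 3 of 19 (15.8%), Fabp4, Cebpd and Cebpb, and lower in 1, Lpl (-0.93), with Adipoq at the floor. Cartilage and bone genes were higher in 6 of 29 (20.7%), including Mgp, a calcification inhibitor (0.68), and lower in 3 (10.3%), including Acan. Cadherins and Ig adhesion molecules were higher in 2 of 23 and lower in 2 (8.70% in each direction). Several of these smaller counts moved by over 1.5 times when 1 array was left out. Without P3 replicate 1, P3 replicate 3, P5 replicate 1, P5 replicate 2 or P5 replicate 3 the higher count was 3 or 4 for glycolysis and 1 to 3 for endoplasmic reticulum stress, and the lower count 2 or 3 for oxidative phosphorylation and 0 or 1 for ribosomal proteins. Without P3 replicate 2 these last were 10 and 9. Without null replicate 2 they were 3 and 2, and without null replicate 3 glycolysis had 5 and ribosomal proteins 2. The antioxidant count was 2 without P3 replicate 1 or P5 replicate 1, the adipocyte count 0 without either of these or P5 replicate 2 and 1 without P5 replicate 3, and the lower cartilage count 0 or 1 without null replicate 2 or any wild type array but P3 replicate 2.

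Chromosomes had medians near 0. The median difference of member genes lay between -0.07 on chromosome 17 and 0.02 on chromosome 1, and the X chromosome, which carries the Bex genes and Dusp9, was at -0.01 with 37 of 325 genes higher and 39 lower. Of 8 sex-linked genes 0 were called. Xist, expressed from the inactive X of female cells, read 10.55, 10.51 and 10.90 and 9.62, 9.50 and 10.38, and the Y-linked gene Eif2s3y 8.58, 9.12 and 8.29 and 9.38, 9.31 and 9.35, both well above 4 on all 6 arrays, and for Xist the P5 arrays lay below the P3 arrays without a call (adjusted p = 0.121). Increases of at least 4-fold were found in 39 genes and decreases in 21. Some probe-sets had signal above 4 on all 3 arrays of one group and on none of the other, 115 at P5 and 62 at P3, and 83 and 29 of these were called. They entered only through the group in which they were high, and their number is a description. The 7 genes Gid4, Nr4a2, Snx6, Tm4sf1, Tomm20, Trim35 and Uhrf1bp1l had called probe-sets in opposite directions, and their direction is uncertain.

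The Tgif1 null cultures at P3 give a second set of values for the same genes, against the same P3 arrays. Cdkn2a read 9.53, 9.68 and 9.80 on the 3 null arrays, Prelp 2.53, 3.01 and 2.54, Rarres1 2.23, 2.23 and 2.23 and Mdk 9.52, 8.85 and 8.45. Bub1b read 7.29, 7.53 and 7.69 and Penk 6.92, 6.68 and 6.72. These are given beside the P5 values and were not tested here.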

How the data were processed

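RNA of 9 mouse arrays (Affymetrix MOE430_2.0, 1 colour) was measured, 3 each for wild type P3, wild type P5 and Tgif1 -/- P3, grouped by GEO's labels. The deposited values are log2 signals per probe-set, which the authors made with GCRMA, a method that subtracts background modelled on probe sequence, quantile normalizes the arrays and summarizes the probes. GCRMA and limma are named in the submitters' processing notes, with versions not given in the sources used here. GCRMA pulls unexpressed probe-sets to a common floor with almost no spread, so that small differences near the floor can pass a test, and a fold against a group there is a lower bound. The number of arrays limits the precision.

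The log2 values were used as deposited, with no further normalization. limma 3.58.1 in R 4.3.3 fitted the 3 groups on all 45101 probe-sets, with eBayes and Benjamini-Hochberg adjustment at 0.05. An exact permutation test of 3 against 3 arrays cannot go below p = 0.1. Probe-sets were named from GEO's platform annotation, with 34958 to 1 gene, 932 to several and 9211 unnamed, and a gene was read from its probe-set with the highest mean over 9 arrays. On simulated data with the same design, 68 of 100 changes of 1 log2 unit and 97 of 100 of 2 units were called. A fold is 2 to the power of the log2 difference.

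Members, gene lists and tests were chosen with earlier results of these data known. Named genes were the markers Cdkn2a, Prelp, Rarres1 and Mdk, the 15 largest called increases and decreases without overlap, and of each list the first 4 genes and up to 6 called genes with the smallest p. Abca1, Aurkb, Ccnd2, Cdc6, Cdc7, Cdk1, E2f1, Foxm1, Kif18b, Mcm4, Mybl2, Myl1, Myl4, Orc3, Orc4, Pold1, Pole, Pttg1, Rb1, Rbl1, Rbl2, Rrm2 and Tnni1 fall outside this rule and were named after their values were seen. Alternatives were the 6 wild type arrays alone, filters on low signal, median centring, quantile normalization and a spread prior that follows the signal. Others were the replicate number as a block, the mean of a gene's probe-sets, the study's p and log2 thresholds, and leaving out each array.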

Additional observations from a re-analysis of the deposited data

How the results depend on the processing

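With the 6 wild type arrays alone, a filter above 6, median centring, quantile normalization or the mean of a gene's probe-sets, where each applies, the counts of called features stayed within 1.5 times those reported (3889 probe-sets, 697 of them at least 2-fold, 3740 members, 2409 genes and 404 genes of the lists). Fitting only the members called 6029. With a spread prior that follows the signal, limma called 1297 probe-sets, 1239 members, 841 genes and 236 list genes, of which 32 were replication, 39 mitotic and 7 immediate early genes. The replicate number as a block on 9 arrays gave 2247 probe-sets, 2149 members and 1447 genes. The block on the 6 wild type arrays leaves few degrees of freedom, and limma called 3 probe-sets with 0 at least 2-fold, 1 member, 3 genes and 1 list gene, where 6935 probe-sets had an unadjusted p under 0.05. Deviations of same-numbered arrays correlated at -0.0529, 0.158 and 0.14, so the numbers were not taken as pairs. The study's thresholds were p under 0.0001 and a log2 difference of at least 0.5. With a moderated F test over the 3 groups, which the Tgif1 -/- arrays also enter, these kept 674 probe-sets. With the moderated test of P5 against P3 they kept 784. Leaving out 1 array gave 2076 to 4161 probe-sets, 500 to 797 of at least 2-fold, 1912 to 4028 members, 1311 to 2622 genes and 265 to 454 list genes. Of 261 genes named, the direction changed in Tm4sf1 (0.46), Trim35 (-0.21) and Uhrf1bp1l (0.18), under the mean of probe-sets. The causes were not tested.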
